A study of Mus musculus with 9 samples.

Results

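Erythroid genes that encode regulators, heme enzymes, iron and heme handling proteins, membrane and membrane skeleton proteins and proteins of late erythroid maturation were measured in fetal liver (FL) macrophages. The 39 genes were chosen by symbol, and all 39 were found among the 13708 genes of the deposited table. They fall into 7 regulators, 7 heme enzymes, 5 genes of iron and heme handling, 10 membrane genes and 10 enzymes and late genes. Bulk RNA-seq was performed on CD45+ F4/80hi CD11blow macrophages from livers at E15.5, with 5 samples of *Mrc1Cre Xpr1fl/fl* embryos and 4 of *Xpr1fl/fl* embryos. Both genotypes carry loxP sites around exon 2 of *Xpr1*, which encodes the phosphate exporter XPR1, and the *Xpr1fl/fl* embryos served as controls without Cre. *Mrc1Cre* is an iCre and eYFP construct placed in the *Mrc1* locus and used in heterozygotes. It acts in cells that express CD206, which include macrophages and also sinusoidal endothelial cells of the liver. Whether a sample came from 1 embryo or from several is not stated in the sources used here, so the p-values measure the spread between these samples, which may be technical.

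Erythroblasts mature in the FL around a central macrophage, to which they stay bound until they expel their nucleus. The transcription factors GATA1, TAL1 and KLF1, with the bridging protein LMO2, switch on the genes of this lineage, among them the globins, the enzymes of heme synthesis and the membrane skeleton. Heme synthesis begins and ends in the mitochondrion, with ALAS2 as the entry enzyme of erythroid cells and ferrochelatase as the last, and the iron comes from transferrin. The red cell membrane is held by a spectrin network that ankyrin and protein 4.1 fasten to the anion exchanger band 3 and to the Rh complex. GATA1, TAL1, NFE2, GFI1B and ZFPM1 also act in megakaryocytes, and LMO2, TFRC and BLVRB are found in many cell types.

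GATA1 binds DNA at a short core sequence, and the start regions of the genes were read for it because all of them are placed in the same lineage program. RefSeq promoter windows (GRCm38.p6, 250 bases before to 50 after the start) matched 29 of the 39 genes by symbol. *Nfe2*, *Xpo7*, *Slc25a37*, *Slc4a1*, *Car1*, *Cldn13*, *Fech*, *Ank1*, *Lmo2* and *Car2* had no window. The core was taken as AGATAA or TGATAA, with A or G allowed as the last letter, on either strand. It stood in a window of 20 of these 29 genes (69%), where 33% of all 27025 genes had one. Some genes have more than 1 window, and among genes with a single window the counts were 14 of 21 genes and 30.7% of all such genes. By group, a match stood in 3 of 5 regulators, 3 of 6 heme enzymes, 2 of 4 iron and heme handling genes, 8 of 8 membrane genes and 4 of 6 enzymes and late genes with a window. Neighboring matches can share a base, as in *Cpox*, where one runs from base −91 to −86 and the next from −86 to −81. Shown are the 120 bases before the RefSeq start of a window, on the strand of the gene and with the base just before that start as −1. They cover a regulator, the heme entry enzyme, a blood group pair and a late gene with a match, and *Tfrc*, which had none in this stretch. Each was placed on GRCm39 by exact match, and capitals mark the match or its reverse complement. RefSeq starts can differ from the ends of the gene coordinates given below. The stretches of *Tfrc* (gene at 32427556 to 32451612) and *Hemgn* (gene at 46393989 to 46413506) lie inside those coordinates, not before them.
*Klf1* (chr8:85628491-85628610, plus strand, first base of the match at −80): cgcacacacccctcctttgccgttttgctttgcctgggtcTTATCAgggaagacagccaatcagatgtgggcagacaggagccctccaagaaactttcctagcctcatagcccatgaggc
*Alas2* (chrX:149330293-149330412, plus strand, match at −86): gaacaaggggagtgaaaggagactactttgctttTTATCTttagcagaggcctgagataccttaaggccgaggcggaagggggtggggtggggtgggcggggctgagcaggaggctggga
*Rhag* (chr17:41121920-41122039, plus strand, match at −31): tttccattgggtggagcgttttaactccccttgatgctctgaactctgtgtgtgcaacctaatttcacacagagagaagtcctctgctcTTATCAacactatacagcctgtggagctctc
*Kel* (chr6:41681260-41681379, minus strand, matches at −56 and −19): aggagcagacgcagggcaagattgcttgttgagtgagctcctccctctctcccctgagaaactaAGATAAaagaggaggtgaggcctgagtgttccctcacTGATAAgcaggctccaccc
*Hemgn* (chr4:46404184-46404303, minus strand, match at −13): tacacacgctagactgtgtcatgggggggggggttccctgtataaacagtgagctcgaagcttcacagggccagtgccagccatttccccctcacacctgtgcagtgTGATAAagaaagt
*Tfrc* (first of its 2 windows, chr16:32427594-32427713, plus strand, no match): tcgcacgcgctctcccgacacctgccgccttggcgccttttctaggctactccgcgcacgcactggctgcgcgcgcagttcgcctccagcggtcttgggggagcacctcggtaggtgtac
A match is a run of letters, and binding of GATA1 was not measured in these samples.

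The deposited values are gene counts that the authors normalized with DESeq2, here called normalized counts, and their sum was 27987204 to 28309443 in *Mrc1Cre Xpr1fl/fl* samples and 26942921 to 28291555 in controls. These sums are set by the normalization, and sequencing depth is unknown. Macrophage markers were abundant in every sample, with summed levels of 378550.6 to 429256.0 normalized counts in *Mrc1Cre Xpr1fl/fl* and 406263.0 to 525169.0 in controls. The 39 erythroid genes together took 0.233% to 0.386% of the normalized counts in *Mrc1Cre Xpr1fl/fl* samples and 0.579% to 0.776% in controls. *Xpr1*, the targeted gene, had 1073.7 to 1285.3 against 1780.9 to 2239.2 normalized counts and fell by 0.77 ± 0.08 on the log2 scale (SE, limma adjusted p = 4.13e-05). Counts are per gene, so transcripts that lack exon 2 are still counted. The names of the samples in the table begin with 1 of 3 dates, whose meaning is not given in the sources used here. *Mrc1Cre Xpr1fl/fl* sample 5 and *Xpr1fl/fl* samples 1 to 3 share the earliest date, *Xpr1fl/fl* sample 4 has the middle one, and *Mrc1Cre Xpr1fl/fl* samples 1 to 4 have the latest. Date and genotype can therefore be separated only at the earliest date. The fold change of a fit with the date as a term rests there on *Mrc1Cre Xpr1fl/fl* sample 5 and 3 controls, because the other samples are taken up by their dates. The p-values of that fit also draw on the spread among *Mrc1Cre Xpr1fl/fl* samples 1 to 4. They hold no spread between *Mrc1Cre Xpr1fl/fl* samples of the earliest date, where there is only 1. *Xpr1* had a log2 fold change of −0.84 in that fit (limma adjusted p = 0.00799).

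All 39 erythroid genes were lower in *Mrc1Cre Xpr1fl/fl* than in *Xpr1fl/fl* macrophages past an adjusted p of 0.05, and 0 were higher (limma on log2(normalized count + 1), 0 higher also at an unadjusted p under 0.05). Of all 13594 genes tested, 21.6% were lower and 21.5% higher by the same rule. Every *Mrc1Cre Xpr1fl/fl* sample lay below every control for 37 of the 39 genes, where 17.5% of all genes did so. The exceptions were *Slc25a38* and *Blvrb*. The median log2 fold change was −1.66, from −2.12 for *Tspo2* to −0.26 for *Blvrb*, and the median of all genes was 0.005. More than a 2-fold fall, a log2 fold change below −1, was seen for 32 genes, against 8.76% of all genes. The other 7 genes were *Lmo2*, *Ppox*, *Slc25a38*, *Tfrc*, *Blvrb*, *Epb41* and *Xpo7*. Fold changes below are log2 values with their standard errors (SE). In bulk RNA, fewer cells of a type and less RNA per cell cannot be told apart.

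**Figure D1:**
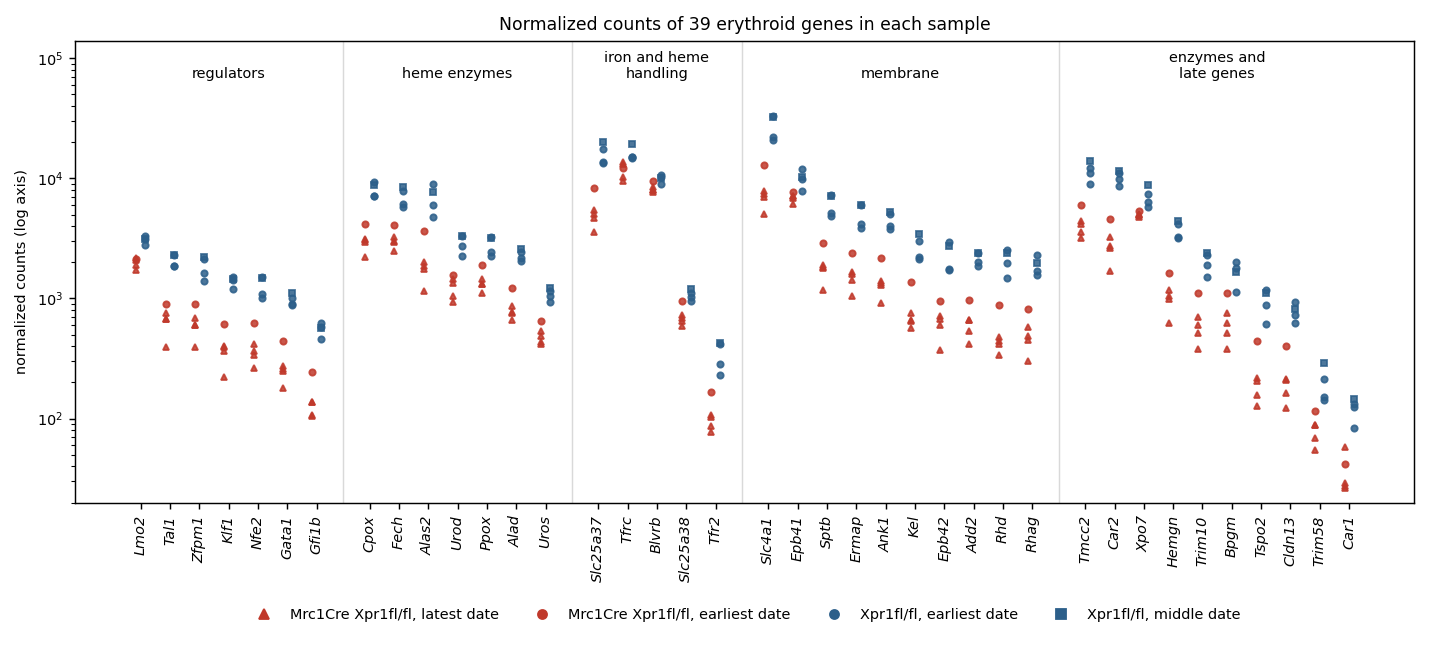
Normalized counts (log axis) of each of the 39 erythroid genes in the 9 samples, grouped by function and ordered by level within a group. Red marks *Mrc1Cre Xpr1fl/fl* samples and blue *Xpr1fl/fl* samples, and the marker shape gives the date in the sample name. Red points lie below blue points for all genes but *Slc25a38* and *Blvrb*, and the red circle, *Mrc1Cre Xpr1fl/fl* sample 5, is the highest red point for 36 genes.

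Sample 5 of *Mrc1Cre Xpr1fl/fl* was the highest of its genotype for 36 genes and sample 2 the lowest for 35. Taking each gene as a percent of its control mean, the median over the 39 genes was 29.2% in *Mrc1Cre Xpr1fl/fl* sample 1, 21.5% in sample 2, 32.5% in sample 3, 31.4% in sample 4 and 50.9% in sample 5. Among controls, samples 3 and 4 were each highest for 19 genes and sample 2 was lowest for 29, with medians of 90.2%, 83.3%, 112.0% and 115% in samples 1 to 4. *Mrc1Cre Xpr1fl/fl* sample 5 thus lay nearest to the controls, and it shares its date with *Xpr1fl/fl* samples 1 to 3 but not with sample 4. It was below all 3 controls of its date for 37 of the 39 genes, where 33.2% of all genes were. With dates fitted as a term, 18 of these 39 were lower and 0 higher (limma, 33 lower and 0 higher at an unadjusted p under 0.05), against 4.54% and 4.24% of all genes. The median log2 fold change of the 39 genes was −0.89 in that fit, from −1.40 to −0.06. Without *Mrc1Cre Xpr1fl/fl* sample 5 and with no date term, all 39 were lower with a median of −1.80, and without sample 2 all 39 were lower with a median of −1.50.

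**Figure D2:**
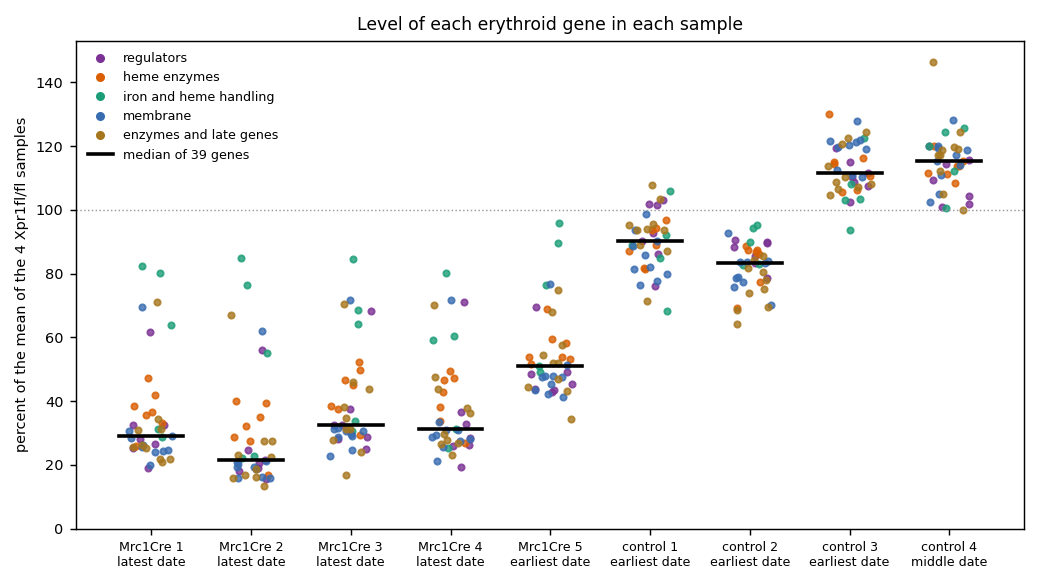
Level of each erythroid gene (points, colored by functional group) in each sample, as a percent of the mean of the 4 *Xpr1fl/fl* samples, with the median of the 39 genes as a bar. The bars stand at 21.5% to 32.5% in *Mrc1Cre Xpr1fl/fl* samples 1 to 4, at 50.9% in *Mrc1Cre Xpr1fl/fl* sample 5 and at 83.3% to 115% in controls.

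The 7 regulators were all lower, with a median log2 fold change of −1.70. *Gata1* (ENSMUSG00000031162, chromosome X, 7825499 to 7844310, minus strand) encodes the zinc finger factor that commits cells to the erythroid and megakaryocytic lineages. Its normalized counts were 247.8, 178.6, 275.4, 257.1 and 443.4 in *Mrc1Cre Xpr1fl/fl* samples 1 to 5 and 906.7, 885.9, 1002.5 and 1119.9 in *Xpr1fl/fl* samples 1 to 4. *Mrc1Cre Xpr1fl/fl* sample 5 was the highest of its genotype and still had less than any control. *Gata1* fell by 1.86 ± 0.20 on the log2 scale (SE, limma adjusted p = 5.72e-05). *Klf1* (ENSMUSG00000054191, chromosome 8, 85628557 to 85631934, plus strand), the activator of the adult β-globin gene, had 396.0, 220.2, 402.5, 362.8 and 613.9 normalized counts in *Mrc1Cre Xpr1fl/fl* and 1421.7, 1196.7, 1523.0 and 1460.5 in *Xpr1fl/fl* samples. The genotypes did not overlap, and sample 2 of *Mrc1Cre Xpr1fl/fl* was the lowest and sample 5 the highest. *Klf1* fell by 1.88 ± 0.22 on the log2 scale (SE, limma adjusted p = 9.05e-05).

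*Gfi1b*, a repressor needed for red cell and platelet formation, showed the largest fall of the regulators. *Mrc1Cre Xpr1fl/fl* samples had 105.6, 137.2, 138.2, 106.9 and 242.2 and controls 573.7, 462.7, 620.8 and 567.2 normalized counts. The first 4 *Mrc1Cre Xpr1fl/fl* samples lay close together, sample 5 stood above them, and all 5 were under every control. *Gfi1b* fell by 1.98 ± 0.22 on the log2 scale (SE, limma adjusted p = 5.47e-05). *Lmo2*, which bridges GATA1 and TAL1 on DNA, showed the smallest. It had 1902.3, 1733.0, 2106.0, 2190.3 and 2149.0 normalized counts in *Mrc1Cre Xpr1fl/fl* and 3141.7, 2766.7, 3316.4 and 3111.8 in *Xpr1fl/fl* samples, again without overlap, but *Mrc1Cre Xpr1fl/fl* sample 5 was not the highest here. *Lmo2* fell by 0.62 ± 0.08 on the log2 scale (SE, limma adjusted p = 0.000146). The remaining 3 were *Tal1*, the helix-loop-helix partner of this complex, at −1.66 ± 0.19 (SE, limma adjusted p = 7.95e-05), *Nfe2*, a leucine zipper factor of the β-globin locus, at −1.70 ± 0.22 (SE, limma adjusted p = 0.00014), and *Zfpm1*, the GATA1 cofactor FOG1, at −1.55 ± 0.21 (SE, limma adjusted p = 0.000177) on the same scale. With the date as a term, *Gata1* (−1.07), *Klf1* (−1.16), *Tal1* (−1.17), *Gfi1b* (−1.18) and *Lmo2* (−0.51) passed, with limma adjusted p-values of 0.0153 to 0.0497. *Nfe2* and *Zfpm1* both had −0.92 and did not (limma adjusted p = 0.0554 and 0.0748).

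All 7 heme enzymes were lower, with a median log2 fold change of −1.21. *Alas2* (ENSMUSG00000025270, chromosome X, 149330371 to 149353634, plus strand), the erythroid form of the entry enzyme, joins glycine and succinyl-CoA. Its normalized counts were 1764.7, 1157.3, 2007.5, 1848.0 and 3681.5 in *Mrc1Cre Xpr1fl/fl* and 5953.3, 4736.0, 8893.1 and 7769.6 in *Xpr1fl/fl* samples. Levels spread widely in both genotypes, with *Mrc1Cre Xpr1fl/fl* sample 5 the highest of its genotype by a wide margin, but they did not overlap. *Alas2* fell by 1.77 ± 0.28 on the log2 scale (SE, limma adjusted p = 0.000513). The housekeeping form *Alas1*, singled out after its values were seen, had 1205.3 ± 45.5 (SD, n = 5) and 1191.3 ± 97.1 (SD, n = 4) normalized counts, and its log2 fold change of 0.02 ± 0.06 (SE, limma adjusted p = 0.828) did not pass.

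*Alad*, which makes porphobilinogen, had the second largest fall of the enzymes, with 764.2, 660.9, 863.3, 774.0 and 1225.5 normalized counts in *Mrc1Cre Xpr1fl/fl* and 2153.8, 2034.8, 2441.1 and 2563.4 in *Xpr1fl/fl* samples. The genotypes lay well apart, and *Alad* fell by 1.45 ± 0.15 on the log2 scale (SE, limma adjusted p = 4.42e-05). *Ppox*, the oxidase before ferrochelatase, had the smallest fall. *Mrc1Cre Xpr1fl/fl* samples had 1319.7, 1117.7, 1452.7, 1312.7 and 1917.2 and controls 2270.5, 2420.1, 3236.1 and 3213.9 normalized counts, and sample 5 of *Mrc1Cre Xpr1fl/fl* was the nearest to the controls, without reaching them. *Ppox* fell by 0.97 ± 0.15 on the log2 scale (SE, limma adjusted p = 0.000503). Between these lay *Cpox* at −1.40, *Urod* at −1.21, *Fech* at −1.15 and *Uros* at −1.12, with standard errors of 0.13 to 0.16 and limma adjusted p-values of 4.96e-05 to 0.000193. These encode coproporphyrinogen oxidase, the uroporphyrinogen decarboxylase, ferrochelatase, which inserts the iron, and the synthase that closes the ring, in that order. With the date as a term, *Cpox* (−0.90), *Alad* (−0.85), *Uros* (−0.69) and *Fech* (−0.67) passed, and *Alas2* (−0.78, limma adjusted p = 0.178), *Urod* (−0.81, 0.0769) and *Ppox* (−0.44, 0.171) did not.

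The 5 genes of iron and heme handling were lower too but differed in size, with a median log2 fold change of −0.58. *Tfrc* (ENSMUSG00000022797, chromosome 16, 32427556 to 32451612, plus strand) encodes the receptor that takes up transferrin iron. *Mrc1Cre Xpr1fl/fl* samples had 13260.0, 13664.1, 10349.1, 9525.4 and 12306.6 and controls 14846.5, 15204.2, 15092.4 and 19327.2 normalized counts. All *Mrc1Cre Xpr1fl/fl* samples were under the lowest control, control 4 stood well above the others, and *Mrc1Cre Xpr1fl/fl* sample 2, the lowest for most genes, was the highest here. *Tfrc* fell by 0.45 ± 0.12 on the log2 scale (SE, limma adjusted p = 0.00901). *Tfr2*, the related receptor that senses transferrin, had 106.5, 77.7, 103.8, 86.3 and 167.4 normalized counts in *Mrc1Cre Xpr1fl/fl* and 232.4, 282.4, 416.7 and 427.2 in *Xpr1fl/fl* samples, again with no overlap. *Tfr2* fell by 1.65 ± 0.24 on the log2 scale (SE, limma adjusted p = 0.000324). The log2 ratio of *Tfrc* to *Tfr2* within a sample was 6.79 ± 0.46 in *Mrc1Cre Xpr1fl/fl* and 5.60 ± 0.35 in controls (SD, n = 5 and 4), a difference of 1.19 (two-sided exact permutation p = 0.0159, adjusted over 5 ratios p = 0.0397). The ratio was higher in every *Mrc1Cre Xpr1fl/fl* sample than in any control, and at the earliest date alone the difference was 0.55.

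*Slc25a37* carries iron into mitochondria, and its normalized counts were 4637.3, 3583.7, 5457.8, 5080.3 and 8248.1 in *Mrc1Cre Xpr1fl/fl* and 13763.4, 13395.3, 17492.6 and 20150.2 in *Xpr1fl/fl* samples. Control 4 was the highest and *Mrc1Cre Xpr1fl/fl* sample 2 the lowest, and the highest *Mrc1Cre Xpr1fl/fl* sample, sample 5, was far below the lowest control. *Slc25a37* fell by 1.62 ± 0.20 on the log2 scale (SE, limma adjusted p = 0.000127). *Slc25a38*, the mitochondrial carrier of glycine for the entry step, had 723.5 ± 141.8 (SD, n = 5) and 1070.7 ± 107.4 (SD, n = 4) normalized counts. Only *Mrc1Cre Xpr1fl/fl* sample 5, at 959.2, reached into the controls, the lowest of which had 954.2, and *Slc25a38* fell by 0.58 ± 0.13 on the log2 scale (SE, limma adjusted p = 0.00376). The log2 ratio of *Slc25a37* to *Slc25a38* was 2.86 ± 0.19 in *Mrc1Cre Xpr1fl/fl* and 3.90 ± 0.16 in controls (SD, n = 5 and 4), a difference of −1.04 (two-sided exact permutation p = 0.00794, the smallest that splits of 5 against 4 samples allow, adjusted p = 0.0397), and −0.75 at the earliest date. *Blvrb*, a biliverdin and flavin reductase that is abundant in red cells, moved least of the 39 genes. It had 8017.2, 7630.3, 8459.9, 8002.1 and 9561.2 normalized counts in *Mrc1Cre Xpr1fl/fl* and 10591.9, 8983.8, 10325.2 and 10036.7 in *Xpr1fl/fl* samples, and sample 5 of *Mrc1Cre Xpr1fl/fl* was above control 2. *Blvrb* fell by 0.26 ± 0.07 on the log2 scale (SE, limma adjusted p = 0.0124). With the date as a term *Slc25a37* passed (−0.84, limma adjusted p = 0.0383), and *Tfr2* (−0.84), *Tfrc* (−0.29), *Slc25a38* (−0.10) and *Blvrb* (−0.06) did not (limma adjusted p = 0.121 to 0.77).

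The 10 membrane genes were lower with a median log2 fold change of −1.78, and 9 of them lay between −2.08 and −1.65. *Slc4a1* (ENSMUSG00000006574, chromosome 11, 102239650 to 102257029, minus strand), which encodes the anion exchanger band 3, had the largest mean of the 39 genes in controls, in normalized counts uncorrected for length, but not in *Mrc1Cre Xpr1fl/fl* samples. *Mrc1Cre Xpr1fl/fl* samples had 6947.8, 5072.4, 7834.3, 7446.3 and 12909.4 and controls 22129.3, 21071.1, 33063.7 and 32432.7 normalized counts. The controls fell into a lower pair, samples 1 and 2, and a higher pair, samples 3 and 4, and *Mrc1Cre Xpr1fl/fl* sample 5 stood between its own genotype and the controls. *Slc4a1* fell by 1.79 ± 0.23 on the log2 scale (SE, limma adjusted p = 0.000148). *Epb42* (ENSMUSG00000023216, chromosome 2, 120848372 to 120867553, minus strand), a protein that joins band 3 and ankyrin, had 606.1, 372.1, 668.9, 714.8 and 952.1 and 1756.0, 1742.7, 2939.1 and 2757.3 normalized counts. The same pairs of controls were seen, with no overlap between genotypes, and *Epb42* fell by 1.81 ± 0.25 on the log2 scale (SE, limma adjusted p = 0.000201).

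*Rhd*, an Rh blood group protein, had the largest fall of the membrane genes, with 420.0, 336.1, 478.4, 444.8 and 883.6 normalized counts in *Mrc1Cre Xpr1fl/fl* and 1967.5, 1474.6, 2555.8 and 2395.2 in *Xpr1fl/fl* samples. Sample 5 of *Mrc1Cre Xpr1fl/fl* stood apart from the other 4 but was below every control, and *Rhd* fell by 2.08 ± 0.25 on the log2 scale (SE, limma adjusted p = 8.78e-05). *Rhag*, the ammonium channel of the same complex, had 453.0, 298.9, 576.6, 483.3 and 816.7 and 1698.7, 1568.4, 2283.3 and 1976.7 normalized counts in the same order. Its levels did not overlap either, and *Rhag* fell by 1.90 ± 0.23 on the log2 scale (SE, limma adjusted p = 0.000107). The log2 ratio of *Rhag* to *Rhd* was 0.04 ± 0.18 in *Mrc1Cre Xpr1fl/fl* (SD, n = 5) and −0.14 ± 0.16 in controls (SD, n = 4), and the difference of 0.18 did not pass (two-sided exact permutation p = 0.159, adjusted p = 0.198). *Epb41*, protein 4.1 of the spectrin and actin junctions, fell least. It had 6918.0, 6173.9, 7152.7, 7159.2 and 7656.7 normalized counts in *Mrc1Cre Xpr1fl/fl* and 9839.2, 7819.6, 11987.5 and 10198.8 in *Xpr1fl/fl* samples, and control 2 was only slightly above *Mrc1Cre Xpr1fl/fl* sample 5. *Epb41* fell by 0.49 ± 0.11 on the log2 scale (SE, limma adjusted p = 0.00331).

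The other 5 membrane genes passed with standard errors of 0.20 to 0.23 and limma adjusted p-values of 6.13e-05 to 0.00017. Among the skeleton genes, the log2 fold change was −1.71 for *Ank1* (ankyrin), −1.71 for *Sptb* (β-spectrin) and −1.78 for *Add2* (β-adducin, which caps actin). *Kel*, the Kell blood group protease, was at −1.79 and *Ermap*, the Scianna blood group protein, at −1.65. *Add1*, the widely expressed α-adducin, was singled out after its values were seen and did not pass, at −0.11 ± 0.05 (SE, limma adjusted p = 0.118). When the date was a term, *Rhd* (−1.14), *Rhag* (−1.16), *Add2* (−1.08), *Ank1* (−0.98) and *Kel* (−0.80) passed, with limma adjusted p-values of 0.0258 to 0.0459. *Slc4a1* (−0.95), *Sptb* (−0.96), *Epb42* (−1.13), *Ermap* (−0.94) and *Epb41* (−0.35) did not, with limma adjusted p-values of 0.0543 to 0.271.

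The 10 enzymes and late genes were lower with a median log2 fold change of −1.71. *Car1* (ENSMUSG00000027556, chromosome 3, 14831269 to 14873459, minus strand) and *Car2* (ENSMUSG00000027562, chromosome 3, 14951317 to 14967568, plus strand) encode carbonic anhydrases, which hydrate carbon dioxide. *Car1* had low counts, with 26.6, 27.2, 29.3, 57.5 and 41.6 normalized counts in *Mrc1Cre Xpr1fl/fl* and 125.3, 83.2, 131.8 and 144.5 in *Xpr1fl/fl* samples. *Mrc1Cre Xpr1fl/fl* sample 4, not sample 5, was the highest of its genotype, and it was under every control. *Car1* fell by 1.74 ± 0.26 on the log2 scale (SE, limma adjusted p = 0.000377). *Car2* had 2624.2, 1691.3, 3227.4, 2737.5 and 4600.2 and 9841.6, 8717.0, 11177.3 and 11616.1 normalized counts, with samples 5 and 2 of *Mrc1Cre Xpr1fl/fl* at the ends and no overlap. *Car2* fell by 1.86 ± 0.22 on the log2 scale (SE, limma adjusted p = 9.12e-05). Per kilobase of transcript, the controls had 102.0 normalized counts of *Car1* and 5304.3 of *Car2*. Their log2 ratio, *Car1* over *Car2*, was −6.30 ± 0.55 in *Mrc1Cre Xpr1fl/fl* (SD, n = 5) and −6.42 ± 0.19 in controls (SD, n = 4), and the difference of 0.12 did not pass (two-sided exact permutation p = 0.667, adjusted p = 0.667).

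*Tspo2*, a cholesterol-binding protein of erythroblasts, had the largest fall of the 39 genes, with 206.2, 128.0, 158.5, 217.9 and 444.6 normalized counts in *Mrc1Cre Xpr1fl/fl* and 889.4, 608.6, 1179.8 and 1110.9 in *Xpr1fl/fl* samples. *Mrc1Cre Xpr1fl/fl* sample 5 was the only one of its genotype near the controls, the lowest of which was control 2. *Tspo2* fell by 2.12 ± 0.31 on the log2 scale (SE, limma adjusted p = 0.000349). *Cldn13*, a claudin, had 162.6, 123.5, 215.6, 207.7 and 403.9 and 726.8, 624.6, 934.9 and 814.5 normalized counts without overlap, and *Cldn13* fell by 1.90 ± 0.27 on the log2 scale (SE, limma adjusted p = 0.000293). *Xpo7*, an exportin that acts when the erythroblast nucleus condenses, fell least, with 5037.1, 4756.4, 4995.5, 4966.8 and 5305.3 and 6315.8, 5795.4, 7424.0 and 8817.4 normalized counts. The *Mrc1Cre Xpr1fl/fl* samples differed little among themselves and control 4 was the highest. *Xpo7* fell by 0.48 ± 0.10 on the log2 scale (SE, limma adjusted p = 0.0031).

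*Hemgn*, a nuclear protein of blood cells, was at −1.83 ± 0.22 (SE, limma adjusted p = 8.56e-05), and *Tmcc2*, a transmembrane protein, at −1.45 ± 0.17 (SE, limma adjusted p = 8.49e-05) on the log2 scale. *Bpgm*, which makes the bisphosphoglycerate that lowers the oxygen affinity of hemoglobin, fell by 1.34 ± 0.27 on the log2 scale (SE, limma adjusted p = 0.00211). *Trim10* and *Trim58* belong to the tripartite motif family, and TRIM58, a ubiquitin ligase, has a part in the loss of the nucleus. They had log2 fold changes of −1.68 ± 0.26 (SE, limma adjusted p = 0.000416) and −1.24 ± 0.25 (SE, limma adjusted p = 0.00246). The log2 ratio of *Trim10* to *Trim58* was 2.93 ± 0.2 in *Mrc1Cre Xpr1fl/fl* (SD, n = 5) and 3.37 ± 0.29 in controls (SD, n = 4), and the difference of −0.44 missed the threshold after adjustment (two-sided exact permutation p = 0.0317, adjusted p = 0.0529). In the fit with the date, *Car2* (−1.10), *Hemgn* (−1.12) and *Tmcc2* (−0.83) passed, with limma adjusted p-values of 0.0299 to 0.0386. The other 7 did not, with log2 fold changes of −1.40 for *Car1*, −0.95 for *Tspo2*, −0.89 for *Cldn13*, −0.76 for *Trim10*, −0.53 for *Trim58*, −0.52 for *Bpgm* and −0.29 for *Xpo7* (limma adjusted p = 0.09 to 0.402).

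**Figure D3:**
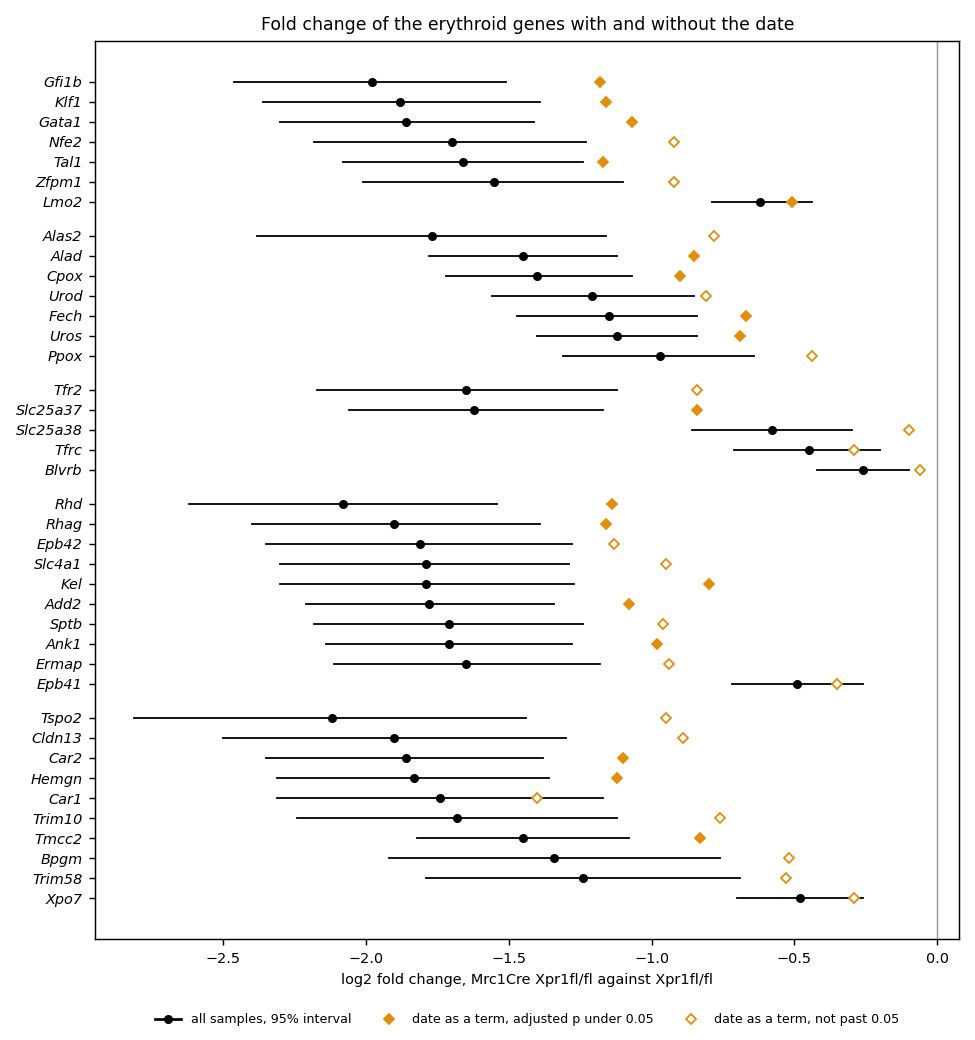
Log2 fold change of each erythroid gene, *Mrc1Cre Xpr1fl/fl* against *Xpr1fl/fl*, over all 9 samples (black points, bars are 95% intervals) and with the date as a term (diamonds, filled where the adjusted p was under 0.05). All points lie below 0, the black points between −2.12 and −0.26, and the 39 diamonds, of which 18 are filled, between −1.40 and −0.06.

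**Figure D4:**
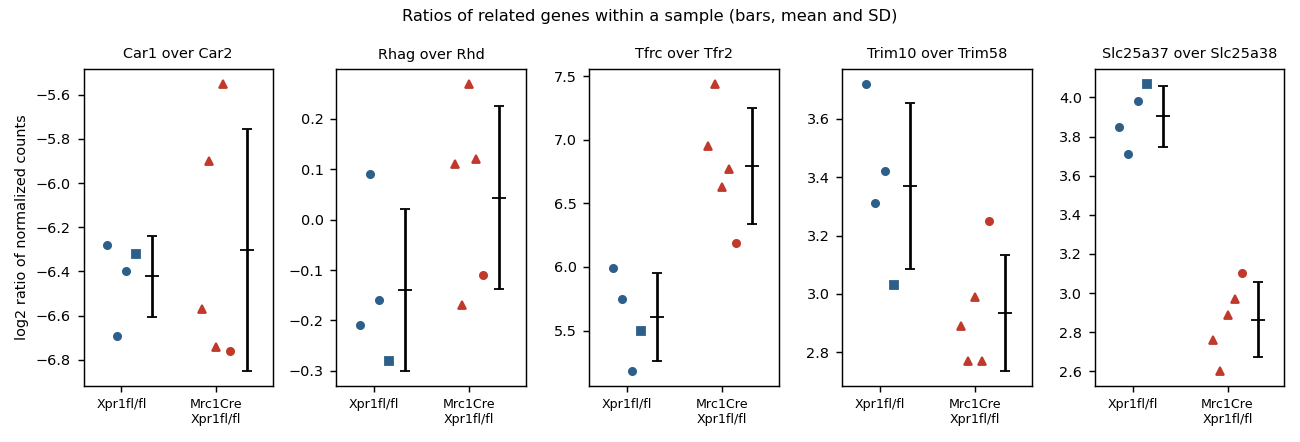
Log2 ratio of normalized counts of related genes within each sample, by genotype, with the mean and SD as bars and the marker shapes by date as in the plot of counts by gene. The genotypes do not overlap for *Tfrc* over *Tfr2* (means 5.60 in *Xpr1fl/fl* and 6.79 in *Mrc1Cre Xpr1fl/fl*) and *Slc25a37* over *Slc25a38* (3.90 and 2.86), and they overlap for the other ratios.

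Levels per kilobase, in normalized counts divided by the length of the canonical transcript, give a rough order of the genes. Which transcript forms these cells make was not examined. Controls had 8637.0 for *Blvrb*, 5978.9 for *Slc4a1*, 5304.3 for *Car2*, 3881.3 for *Slc25a37*, 3356.9 for *Alas2* and 3292.7 for *Tfrc*, and the lowest was *Trim58* with 36.6. In *Mrc1Cre Xpr1fl/fl* samples the same genes had 7209.5, 1769.4, 1527.0, 1294.1, 1026.9 and 2414.9 per kilobase, so that the mean level of *Tfrc* stood above those of *Slc4a1*, *Car2*, *Slc25a37* and *Alas2*. *Gata1* had 514.6 and *Klf1* 907.0 per kilobase in controls, and *Lmo2*, the most abundant regulator, had 1671.6.

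Further genes of the same pathways were counted by list. Of 16 further genes of heme synthesis and its iron supply, 9 were lower, 1 was higher and 6 did not pass, with a median log2 fold change of −0.26. *Abcb10*, a mitochondrial transporter that binds the SLC25A37 protein, was at −1.18 ± 0.13 (SE, limma adjusted p = 6.96e-05). *Flvcr1*, a heme exporter, was the one that rose, at 0.37 ± 0.05 (SE, limma adjusted p = 0.000173), and *Tmem14c*, which carries a heme precursor into the mitochondrial matrix, was the most abundant and had −0.30 ± 0.06 (SE, limma adjusted p = 0.00277). Of 18 further membrane genes, 13 were lower, 1 was higher and 4 did not pass, with a median of −0.93. *Icam4*, a red cell adhesion molecule that binds macrophage integrins, had −2.16 ± 0.26 (SE, limma adjusted p = 9.9e-05), and *Aqp1*, the water channel, −2.02 ± 0.24 (SE, limma adjusted p = 8.36e-05). *Tpm3*, a widely expressed tropomyosin and the most abundant of the list, had 0.16 ± 0.05 (SE, limma adjusted p = 0.0306), a call that was lost after scaling to the 75th percentile or to all other genes, under quantile normalization, with the date as a term, and without *Mrc1Cre Xpr1fl/fl* sample 2 or 5 or *Xpr1fl/fl* sample 3 or 4. Scaled to macrophage markers, the heme list had 5 lower and 4 higher genes.

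Of 18 further regulators, 12 were lower and 4 higher, with a median log2 fold change of −0.56. *Bcl11a*, the repressor of embryonic globins, was at −1.62 ± 0.13 (SE, limma adjusted p = 1e-05) and *Myb*, a factor of progenitors, at −1.55 ± 0.15 (SE, limma adjusted p = 3.02e-05). *Runx1*, a factor of definitive blood cells and myeloid cells, had 0.38 ± 0.06 (SE, limma adjusted p = 0.000423) and *Stat5b*, which acts downstream of the erythropoietin receptor, 0.22 ± 0.06 (SE, limma adjusted p = 0.0102). *Zbtb7a*, a repressor of fetal globin and the most abundant of the list, had 0.21 ± 0.05 (SE, limma adjusted p = 0.0071). The higher regulators numbered 2 after scaling to the 75th percentile and 1 under quantile normalization. With the date as a term 1 was higher, *Runx1* (0.37, limma adjusted p = 0.0486), while *Stat5b* (0.06, 0.698) and *Zbtb7a* (0.16, 0.208) did not pass. Of 14 further late genes, 11 were lower and 0 higher (limma, 1 higher at an unadjusted p under 0.05), with a median of −0.66. *Fn3k*, a kinase that removes sugar from proteins, was at −2.00 ± 0.24 (SE, limma adjusted p = 0.000105) and *Gpx1*, a glutathione peroxidase and the most abundant, at −0.77 ± 0.09 (SE, limma adjusted p = 7.6e-05). All 7 globins of the table were lower, with a median of −1.82. *Hbb-bs* had −1.89 ± 0.30 (SE, limma adjusted p = 0.000514) and *Hba-a1*, the most abundant, −1.87 ± 0.28 (SE, limma adjusted p = 0.000389). Reads of *Hba-a1* and *Hba-a2*, and of *Hbb-bs* and *Hbb-bt*, are hard to divide because the copies are nearly identical. In the fit with the date, 4 of the heme, 7 of the membrane, 4 of the regulator and 5 of the late list were lower, and 0 globins passed (limma, 5 lower at an unadjusted p under 0.05, median −0.74).

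Markers of several other cell types were also lower in *Mrc1Cre Xpr1fl/fl* samples. Of these, hepatocytes and endothelial cells lack CD45, and the sorted cells were CD45+. Their markers were still counted in every sample, at the sums given below, and the source of this RNA was not tested. Globins took 0.296% to 1.01% of all normalized counts in *Mrc1Cre Xpr1fl/fl* samples and 1.35% to 2.10% in controls. Megakaryocyte markers were lower for 6 of 10 genes (median log2 fold change −1.32), with summed levels of 861.6 to 1245.5 normalized counts in *Mrc1Cre Xpr1fl/fl* and 2469.4 to 3039.9 in controls. These sums were mostly *Pf4*. With the date as a term *Pf4* had a log2 fold change of −1.92, while the median of the megakaryocyte list was −0.23. For mast cells and basophils 4 of 5 were lower (−1.13), at 297.0 to 376.6 normalized counts in *Mrc1Cre Xpr1fl/fl* and 696.1 to 1187.1 in controls. *Kit* was the largest part of these sums and the only gene of this list without overlap between genotypes. *Cpa3*, *Ms4a2* and *Mcpt8* had low counts, at most 85.5 in any sample. Granulocyte markers were lower for 3 of 8 genes (−1.42), and their sums of 4978.1 to 18147.8 normalized counts in *Mrc1Cre Xpr1fl/fl* and 8770.9 to 54028.2 in controls overlapped. The 3 lower genes were *Mpo* (−1.87), *Elane* (−2.22) and *Prtn3* (−2.1). In the paper, single-cell clusters with *Elane* and *Prtn3* were classed as granulocyte-monocyte progenitors. The other granulocyte genes overlapped between genotypes and did not pass. Among them *Ltf* had 101.9 to 8013.3 normalized counts in controls. Endothelial markers were lower for 8 of 10 genes (−1.40) at 6300.3 to 8427.7 normalized counts in *Mrc1Cre Xpr1fl/fl* and 10376.7 to 14335.7 in controls, and hepatocyte markers for 9 of 9 (−1.11) at 35037.2 to 45318.6 normalized counts in *Mrc1Cre Xpr1fl/fl* and 59182.5 to 101832.1 in controls. Of the macrophage markers, 5 were lower, 1 higher and 6 did not pass, with a median of −0.12. In the fit with the date, 1 of 10 megakaryocyte genes was lower (median −0.23), as were 4 of 5 mast cell and basophil genes (−1.66), 3 of 8 granulocyte (−0.76), 2 of 10 endothelial (−1.0), 2 of 9 hepatocyte (−0.57) and 2 of 12 macrophage genes (−0.04), against 18 of the 39 erythroid genes (−0.89). The most abundant gene of each list, in mean normalized counts of *Mrc1Cre Xpr1fl/fl* and *Xpr1fl/fl* samples, was *Pf4* (528.0 and 1776.8), *Kit* (198.0 and 612.8), *S100a9* (2003.3 and 7041.0), *Stab2* (4792.9 and 8125.1), *Trf* (21976.9 and 35179.7) and, for macrophages, *Hmox1* (111805.6 and 150510.1). Only *S100a9* among them did not pass (limma adjusted p = 0.169). Its values overlapped, at 907.5 to 4994.6 normalized counts in *Mrc1Cre Xpr1fl/fl* and 636.9 to 14013.4 in controls. Over all of these lists, 1 value in 1 sample was 0, of a megakaryocyte gene. The part of these cells, and of cells that erythroid RNA could come from, in the lower levels of the 39 genes was not tested. Scaling to macrophage markers used their sum, in which *Hmox1* was the largest part and was itself lower (log2 fold change −0.42, limma adjusted p = 0.0359). It is therefore not a clean measure of macrophage content. When each sample was scaled to its macrophage markers, the median log2 fold change of all genes became 0.26, and 35 of the 39 erythroid genes were still lower, with a median of −1.40. *Xpo7*, *Tfrc*, *Slc25a38* and *Blvrb* no longer passed (limma adjusted p = 0.0548 to 0.976).

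**Figure D5:**
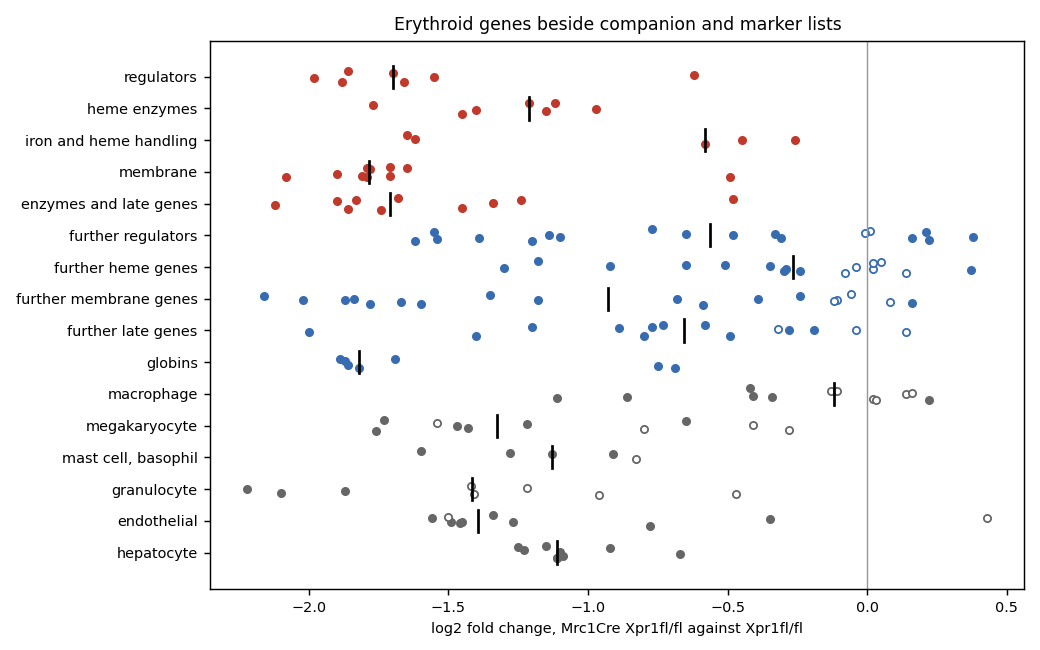
Log2 fold change, *Mrc1Cre Xpr1fl/fl* against *Xpr1fl/fl*, of each gene (points, filled where the limma adjusted p was under 0.05) in the 5 groups of the 39 erythroid genes (red), in further genes of the same pathways and the globins (blue) and in marker lists of other cells (gray), with the median of each list as a black bar. Medians run from −0.58 to −1.78 in the red groups, from −0.26 to −1.82 in the blue lists and from −0.12 for macrophage markers to −1.42 for granulocyte markers in the gray lists.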

How the data were processed

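FL macrophages of 5 *Mrc1Cre Xpr1fl/fl* and 4 *Xpr1fl/fl* samples at E15.5 were analyzed by bulk RNA-seq. The authors quantified reads with salmon on GRCm39, imported them with tximport and normalized them with DESeq2, and the deposited signal is the normalized count per gene. Versions and a filter on low genes are not given in the sources used here. The smallest mean of a gene was 5.79 normalized counts. Values under 10 fell near whole multiples of a read in 26.5% to 49.7% of cases per sample (within 5% of the step, 10% by chance), so whole reads were not recovered, no count test was run and depth is unknown. Symbols, coordinates and lengths of the canonical transcripts came from GENCODE release 39 for mouse on GRCm39 (13698 of 13708 genes).

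Genotypes were compared in limma 3.58.1 (R 4.3.3) with an intensity trend in eBayes, on log2(normalized count + 1). The 13594 genes that reached 10 normalized counts in 4 or more samples were tested, with Benjamini-Hochberg adjustment over all of these and a threshold of 0.05. This scale understates the change of low genes. The 5 ratios were compared by two-sided exact permutation of the genotypes, adjusted over the 5. On simulated data, 83 of 100 genes changed by 1 and 99 of 100 changed by 2 on the log2 scale were recovered, and 6 unchanged genes were called among 13431 tested. Genes with low counts were left out of those changed, and far fewer genes were changed than were called in the real data. The simulated noise was independent between genes and samples and held no effect of the date. These counts therefore do not cover low genes or the overlap of date and genotype. Python 3.11.15 with matplotlib 3.10.9 served for the figures.

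The 39 genes, the lists and the tests were chosen with earlier results of these data known. By rule, every one of the 39 genes was named. Values per sample were given for *Gata1*, *Klf1*, *Alas2*, *Tfrc*, *Slc4a1*, *Epb42*, *Car1* and *Car2* and, in each group, for the 2 largest and the smallest change. Of each companion list the most abundant gene, the 2 largest falls and the 2 largest rises past the threshold were named, and of each marker list the most abundant gene, except that some genes are not reported here. *Ahsp*, *Mcpt4* and *Gzmb*, also listed, had no values in the table, and *Sox6* counts in both the regulator and the late list. Alternatives were pseudocounts of 0.5 and 10, no filter and a filter at 50, scaling to the 75th percentile, to macrophage markers and, chosen after seeing the data, to all other genes, quantile normalization, limma without trend and with robust fitting, the replicate number as a block, the date as a term, and leaving out each sample. Numbers 1 to 4 are shared by the genotypes, but same-numbered samples did not deviate together. No column was left unmatched to a sample. The single-cell data of the study were not analysed here.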

Additional observations from a re-analysis of the deposited data

Results flagged for a closer look

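In 90 groups of 4 or 5 samples, formed by each erythroid gene, *Xpr1* and each ratio in each genotype, each extreme sample was held against the rest. By Dixon's criterion 5 groups had an outlying sample, and chance gives about 1 in 20, or 4.5. In 4 of them it was sample 5 of *Mrc1Cre Xpr1fl/fl*, the only one of its genotype with the earliest date, which had 242.2 normalized counts of *Gfi1b* against 105.6 to 138.2 in the other *Mrc1Cre Xpr1fl/fl* samples, 883.6 of *Rhd* against 336.1 to 478.4, 1384.4 of *Kel* against 569.7 to 760.3 and 444.6 of *Tspo2* against 128.0 to 217.9. Without this sample these 4 genes were lower in *Mrc1Cre Xpr1fl/fl* by limma as before. In the remaining group, *Xpr1fl/fl* sample 4 had 19327.2 normalized counts of *Tfrc* against 14846.5 to 15204.2 in the other controls, and *Tfrc* kept its call without it. What set these samples apart was not tested.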

How the results depend on the processing

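All 39 erythroid genes stayed lower past the threshold under other pseudocounts and filters, scaling to the 75th percentile or to all other genes, quantile normalization, limma without trend or robust, and without each sample in turn (medians −1.80 to −1.50). The date as a term left 18 of them lower, with 617 lower and 577 higher genes in all. Scaling to macrophage markers left 35, with 1531 lower and 5516 higher genes in all, against 2939 and 2926. Scaling to the 75th percentile gave 3707 lower and 1999 higher genes, and scaling to all other genes 3389 and 2320. None of the 39 genes changed direction. Without each sample in turn, the difference in the log2 ratio of *Tfrc* to *Tfr2* ran from 1.03 to 1.34, of *Slc25a37* to *Slc25a38* from −1.10 to −0.97, of *Trim10* to *Trim58* from −0.55 to −0.32 and of *Car1* to *Car2* from −0.07, without *Mrc1Cre Xpr1fl/fl* sample 4, to 0.23. Without *Mrc1Cre Xpr1fl/fl* sample 1, 2, 3 or 4 the first of these ratios and that of *Slc25a37* to *Slc25a38* missed the threshold (adjusted p = 0.0714), and without sample 5 both passed (0.0476). With 4 against 4 samples the smallest exact permutation p is 0.0286 before adjustment. *Trim10* to *Trim58* passed without *Mrc1Cre Xpr1fl/fl* sample 5 (−0.52) or *Xpr1fl/fl* sample 4 (−0.55). At the earliest date, with 1 sample against 3 and no test, the differences were −0.30 for *Car1* to *Car2*, −0.02 for *Rhag* to *Rhd*, 0.55 for *Tfrc* to *Tfr2*, −0.23 for *Trim10* to *Trim58* and −0.75 for *Slc25a37* to *Slc25a38*. The cause of these changes was not tested. With the replicate number as a block, which takes up *Mrc1Cre Xpr1fl/fl* sample 5 as the only number 5, all 39 genes were lower (median −1.80) and 3080 genes were lower and 3146 higher in all. Same-numbered samples correlated with r of −0.03 to 0.15 in their deviations from the group means, so the numbers do not pair the samples. With 4 and 5 samples and unknown depth, small differences such as that of *Blvrb* are the least certain.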
